A study of Homo sapiens with 6 samples.

Results

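The genes described here are the machinery of cell division: mitotic kinases and their regulators, the spindle checkpoint, centromere and kinetochore proteins, mitotic kinesins, spindle-associated proteins, the cytokinesis apparatus and the proteins that shape mitotic chromosomes. They were chosen by name, as a list of 59 gene symbols with known roles in mitosis. The list was drawn up with earlier results of these data known. All 59 were found by NCBI Gene number among the 29806 genes of the deposited counts. LNCaP cells are an established, androgen-responsive line of human prostate cancer. RNA was extracted 48 h after plating from 3 dishes of LNCaP parental cells (wild type) and from 3 dishes of LNCaP cells in which CRISPR/Cas9 had been used to knock out PACT (PACT KO), the double-stranded RNA binding protein encoded by *PRKRA*. Both groups grew in RPMI-1640 with fetal bovine serum, and no hormone or drug is named for either. By the study's methods, the PACT KO cells had been transfected with a Cas9 and guide RNA plasmid, sorted for GFP and grown from a single clone. Their replicates measure the spread between dishes of that clone. Loss of PACT, transfection, sorting and clonal origin coincide in these groups and cannot be told apart. Reads of polyadenylated RNA were counted per gene.

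Dividing cells make most of this machinery anew in each cycle. Transcripts of the genes build up through G2, peak near mitosis and are cleared after it, so bulk levels of them follow the share of cells in G2 and mitosis as well as transcription in each cell. Many of their promoters carry a cell cycle homology region (CHR) near the start of transcription and CCAAT boxes upstream of it. Through the CHR they are held silent in resting cells by the DREAM complex and activated in late cycle by B-MYB and FOXM1. In prostate tissue the same genes are low in the quiescent luminal epithelium and rise in proliferating tumour cells.

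The promoters of the members are shown first, as a description. The RefSeq promoter table (GRCh38.p14, 250 bases before and 50 bases after the start) held 51 of the 59 genes, all but *AURKA*, *FOXM1*, *BUB3*, *TTK*, *UBE2C*, *BIRC5*, *KNL1* and *TPX2*. The 100 bases just before the start are printed for 8 genes, with motif letters in capitals: the CHR (TTTGAA or TTCGAA), the CCAAT box (CCAAT), or either on the reverse strand (TTCAAA for the first, and ATTGG for the CCAAT box). The first 5 have a CHR at its usual place and include *PLK1*, which had the largest fall of the genes that start mitosis. *CKAP5* has the motifs but was among the genes that moved least, and *TACC3* and *KIF2C* have none of them within the 300 bases and fell further than most. The 8 were chosen by no fixed rule and with their changes known, so they do not stand for the 59. The positions are chr16:23678789-23678888 (plus strand) for *PLK1*, chr15:59105046-59105145 (plus) for *CCNB2*, chr12:53268199-53268298 (plus) for *ESPL1*, chr5:163460532-163460631 (plus) for *HMMR*, chr10:128126424-128126523 (minus) for *MKI67*, chr11:46846281-46846380 (minus) for *CKAP5*, chr4:1720531-1720630 (plus) for *TACC3* and chr1:44739737-44739836 (plus) for *KIF2C*.
PLK1: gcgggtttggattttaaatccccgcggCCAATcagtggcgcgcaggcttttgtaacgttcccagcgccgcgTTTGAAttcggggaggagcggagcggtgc
CCNB2: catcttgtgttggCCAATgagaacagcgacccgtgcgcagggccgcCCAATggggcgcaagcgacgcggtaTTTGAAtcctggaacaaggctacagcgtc
ESPL1: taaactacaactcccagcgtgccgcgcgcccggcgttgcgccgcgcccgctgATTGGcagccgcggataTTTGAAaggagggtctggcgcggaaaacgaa
HMMR: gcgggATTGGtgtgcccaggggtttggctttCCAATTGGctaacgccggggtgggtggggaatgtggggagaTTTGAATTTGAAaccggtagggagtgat
MKI67: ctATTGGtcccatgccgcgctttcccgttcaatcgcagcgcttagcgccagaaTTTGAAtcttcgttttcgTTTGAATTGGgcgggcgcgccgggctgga
CKAP5: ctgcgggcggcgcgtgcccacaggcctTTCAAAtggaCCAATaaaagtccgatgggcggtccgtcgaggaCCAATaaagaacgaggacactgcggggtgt
TACC3: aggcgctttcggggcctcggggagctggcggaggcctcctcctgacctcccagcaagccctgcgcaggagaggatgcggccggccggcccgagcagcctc
KIF2C: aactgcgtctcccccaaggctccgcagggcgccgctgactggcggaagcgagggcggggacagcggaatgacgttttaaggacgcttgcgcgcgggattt

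In *MKI67* a CHR and a reversed CCAAT box overlap, and in *HMMR* CCAAT boxes on opposite strands overlap. A CHR was found on either strand in 39 of the 51 promoters (76.5%), against 10.8% of the 11195 promoters of genes tested and 16.6% of all 27305 promoters of this length. In 31 of the 51 (60.8%) it began within 50 bases of the start, as it did in 3.06% of promoters of genes tested. A CCAAT box was present in 37 (72.5%, against 36.9%) and both motifs in 31 (60.8%, against 4.64%). An E2F site, written as TTTGGCGC, TTTGGCGG, TTTCCCGC, TTTGCCGC or TTTCGCGC, was found in 6 (11.8%, against 6.39%). For comparison, 39 promoters of DNA replication genes, which are expressed earlier in the cycle, held an E2F site in 21 (53.8%) and a CHR in 2 (5.13%). These matches are descriptions of letters in a window and not of bound factors. The 39 genes with a CHR had a median log2 fold change of -0.57 and the 12 without one a median of -0.55. Without one means that neither spelling lay in the 300 bases around the RefSeq start used. Other spellings, starts and windows were not searched.

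**Figure D1:**
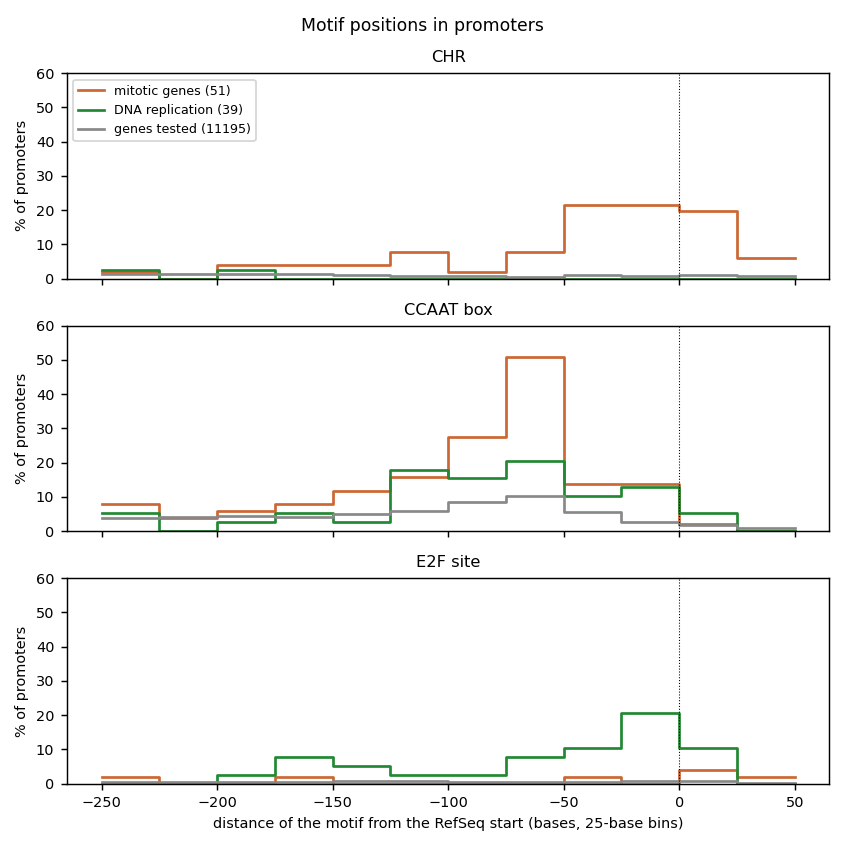
Share of promoters (y axis, percent) in which a motif begins in each 25-base bin of distance from the RefSeq start (x axis, bases), for the 51 mitotic genes with a promoter, 39 DNA replication genes and the 11195 genes tested. CHR motifs of mitotic genes gather around the start, CCAAT boxes upstream of it, where 50.98% of the promoters have one between 75 and 50 bases before the start, and E2F sites are concentrated in the replication genes.

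The libraries held 19930060 to 24940838 reads on genes, and replicates of a group differed by 1.55 to 3.58 times the variance that sampling alone gives. *PRKRA* was 37.1 ± 1.96 CPM (read counts scaled to library size after TMM, SD, n = 3) in LNCaP parental and 12.5 ± 0.995 CPM in PACT KO cells, a log2 fold change of -1.57 (SE 0.07). The 8 luminal prostate markers were all detected in both groups. Their summed level was 3700 to 3710 CPM in the parental libraries and 3880 to 3910 CPM in the PACT KO libraries. Marker sums, here and in the next lines, were scaled to library totals without TMM. Of 10 markers of basal, blood, endothelial and stromal cells, 5 exceeded 3 counts in a parental library and 4 in a PACT KO library. Their sum of 59 to 61.8 CPM and 60.6 to 67.7 CPM came almost entirely from *VWF*, *COL1A1* and *COL3A1*, which did not move as one. *VWF* was a downregulated gene at a log2 fold change of -0.61 (false discovery rate, FDR = 4.91e-09, edgeR), a fall of the size seen in the mitotic genes, *COL1A1* was higher at 0.52 (FDR = 1.98e-10) and *COL3A1* was at -0.09 (FDR = 0.528). The part of these markers in the results was not tested. The leukocyte genes *PTPRC* and *CD3E* had at most 2 reads in any library. Transcripts of the mitochondrial genome made up 1.94% to 1.98% of reads in the parental libraries and 2.47% to 2.84% in the PACT KO libraries, and their part in the results below was not tested.

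Genes were called lower or higher at a false discovery rate (FDR) under 0.01 in edgeR's quasi-likelihood F-test (2-sided, Benjamini-Hochberg over all 14462 genes tested), and were called DEGs when the absolute fold change was also at least 1.5. The DEG call uses the thresholds of the study, whereas the calls of lower and higher use the FDR alone. All 59 mitotic genes passed the filter on low counts. All 59 were lower in PACT KO cells, where 18.8% of all genes tested were lower and 15.3% higher. Since the list was made with earlier results of these data known, its shares beside those of all genes, here and below, are a description. Over all genes, 2726 were lower and 2214 higher, a split that turned to 2286 and 2731 with library totals and to 2350 and 2652 with upper-quartile scaling, whereas the members were 59 lower and 0 higher under both. In each of the 59, every PACT KO library lay below every LNCaP parental library, an arrangement seen in 27.2% of all genes tested. The median log2 fold change was -0.55, which is 68.1% of the parental level, against 0.00 over all genes tested. The falls ran from -0.83 (*SPC25*) to -0.15 (*BUB3*), with standard errors of 0.03 to 0.10 and FDR values from 5.34e-20 to 3.98e-04. With fewer cells in G2 and mitosis or less RNA of each gene in a cell, a bulk sample would look the same, and these counts cannot tell the 2 apart.

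The 59 genes summed to 4224, 4197 and 4244 CPM in the LNCaP parental libraries and to 2953, 2969 and 3086 CPM in the PACT KO libraries, or 71.1% of the parental sum. Relative to its own parental mean, the median gene stood at -0.57, -0.58 and -0.50 on the log2 scale in PACT KO replicates 1, 2 and 3. The third PACT KO library, the one with the fewest reads, was the highest of its group for 38 of the 59 genes, yet it still lay below all 3 parental libraries for each of them.

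**Figure D2:**
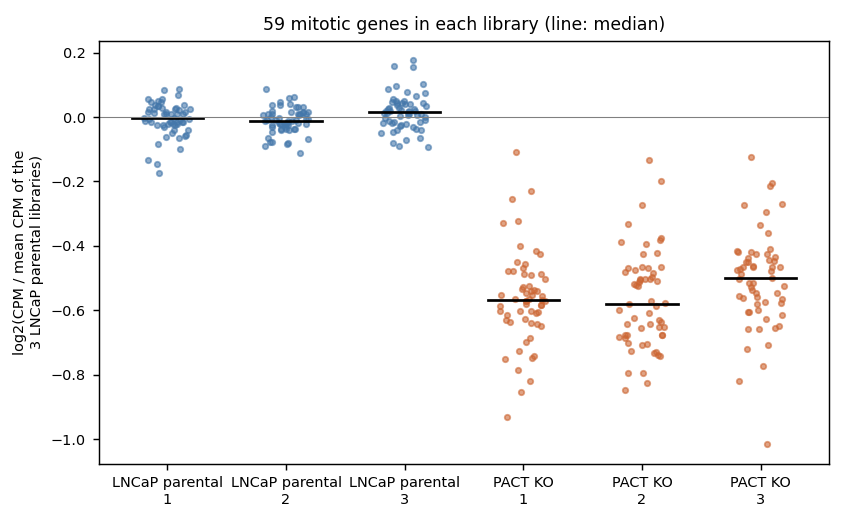
Level of each of the 59 mitotic genes (points) in each library, as log2 of its CPM over the mean CPM of the 3 LNCaP parental libraries, with the median of each library as a line. The parental medians lie between -0.009 and 0.017 and the PACT KO medians between -0.58 and -0.50.

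Most falls sat close to the 1.5-fold line. Of the 59 genes, 23 were downregulated DEGs, where 2.65% of all genes tested were, and 0 were upregulated, where 3.07% of all genes tested were. The log2 fold change of 37 members was within 0.1 of that line (-0.58), and the 95% interval of 37 members held it. For 6 members the interval lay wholly beyond 1.5-fold (*PLK1*, *ESPL1*, *SPC25*, *KIF2C*, *KIFC1* and *TACC3*), and for 16 it lay wholly short of it. In a test against 1.5-fold rather than against no change (glmTreat of edgeR, FDR under 0.01), *PLK1* and *KIFC1* passed and the other 57 did not. Among all 59, none reached a 2-fold fall.

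Levels of different genes were compared per length, as reads scaled to exon length and library size (RPKM). In LNCaP parental cells they ran from 2.74 RPKM for *ASPM*, a spindle pole protein, to 62.2 RPKM for *CCNB1*, with a median of 13.4 RPKM. *CDC20* (49.2 RPKM) and *CDK1* (46.8 RPKM) followed *CCNB1*. Across the 59 genes, Spearman's rho between the log2 fold change and log2 RPKM was 0.31 and Pearson's r was 0.29, values that share libraries and are a description across genes.

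**Figure D3:**
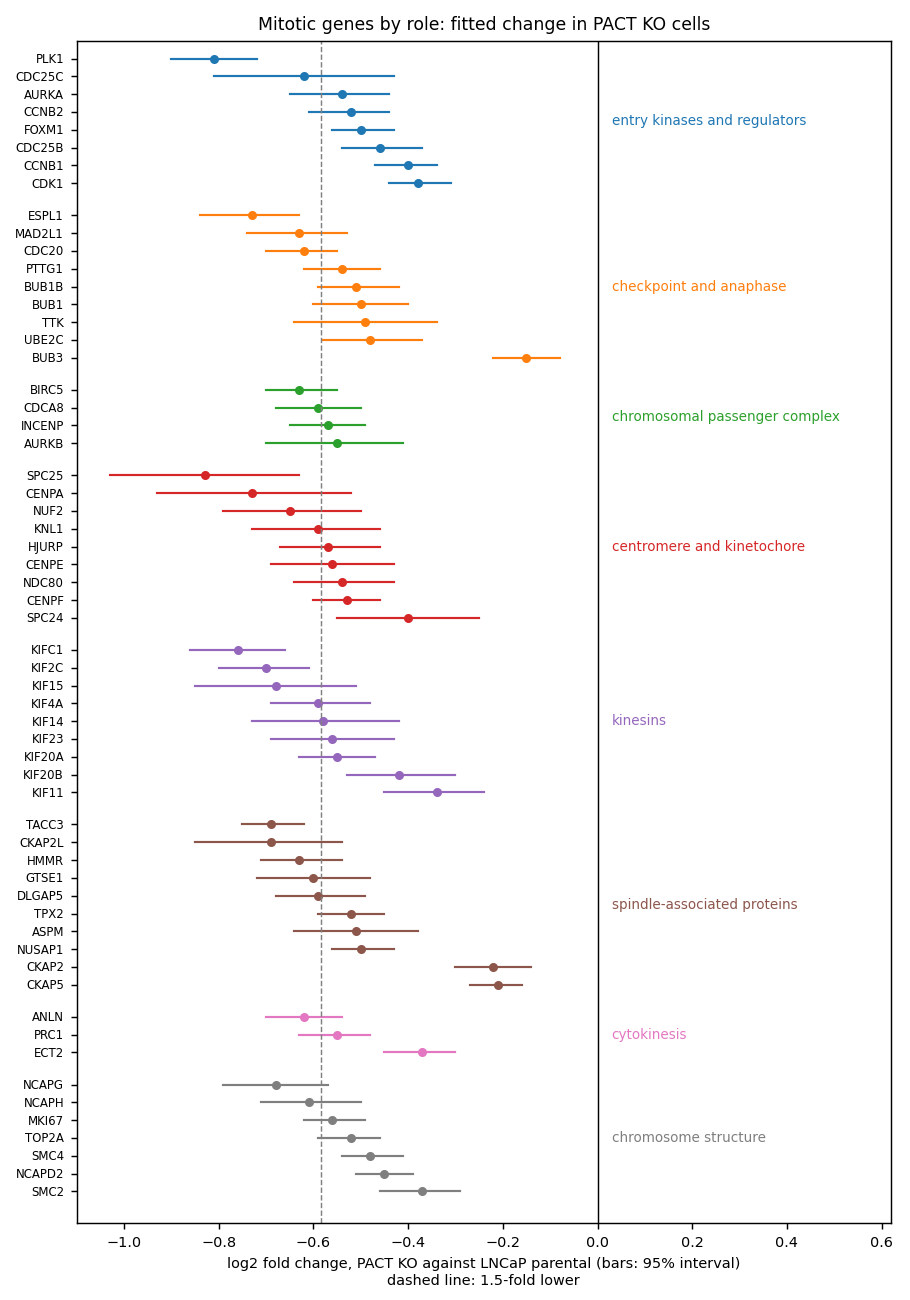
Fitted log2 fold change of PACT KO against LNCaP parental cells (points) with 95% intervals (bars) for the 59 mitotic genes, grouped by role and ordered within each role. Every interval lies below 0, and the dashed line marks 1.5-fold lower (-0.58).

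The kinases and regulators that start mitosis were all lower, 8 of 8, with 2 downregulated DEGs and a median log2 fold change of -0.51. *PLK1*, the polo-like kinase that drives centrosome maturation and mitotic entry, measured 68.0, 63.2 and 61.3 CPM in the LNCaP parental replicates and 35.5, 37.0 and 37.6 CPM in the PACT KO replicates. The groups were far apart, with a log2 fold change of -0.81 (SE 0.04, FDR = 4.21e-18, edgeR), 57.1% of the parental level. *FOXM1*, the transcription factor that activates many of the other members, measured 175, 173 and 160 CPM in parental cells against 116, 120 and 124 CPM in PACT KO cells. Its log2 fold change was -0.50 (SE 0.03, FDR = 2.17e-15), and its 95% interval (-0.56 to -0.43) stopped short of 1.5-fold. *CDK1*, the kinase at the centre of mitotic entry, was 184 ± 3.24 CPM in parental and 142 ± 4.22 CPM in PACT KO cells (SD, n = 3). *CCNB1*, its cyclin partner, was 159 ± 3.75 and 120 ± 4.93 CPM. These 2 had log2 fold changes of -0.38 (95% interval -0.44 to -0.31) and -0.40 (-0.47 to -0.34), the smallest of the group, and their intervals did not meet that of *PLK1* (-0.90 to -0.72). Where intervals of different genes are set side by side, here and below, the difference between the genes was not tested. *CCNB2*, the second B-type cyclin, stood at -0.52. Of the phosphatases that switch on CDK1, *CDC25B* had a log2 fold change of -0.46 and *CDC25C*, at 17.7 CPM in parental cells, one of -0.62 (SE 0.10). *AURKA*, the centrosomal Aurora kinase, stood at -0.54.

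All 9 genes of the spindle checkpoint and of anaphase were lower, 3 of them as downregulated DEGs. *CDC20*, the coactivator of the anaphase-promoting complex that the checkpoint restrains, measured 96.8, 101 and 103 CPM in the parental replicates and 61.8, 65.8 and 68.3 CPM in the PACT KO replicates, a log2 fold change of -0.62 (SE 0.04, FDR = 1.08e-16, edgeR). *ESPL1*, which encodes separase, the protease that opens cohesin, measured 40.6, 40.7 and 42.6 CPM against 24.6, 23.8 and 26.2 CPM. That was the largest change of the group, -0.73 (SE 0.05, FDR = 1.73e-14). *PTTG1*, the securin that inhibits separase, was at -0.54, and *UBE2C*, the ubiquitin-conjugating enzyme of the complex, at -0.48. Among the checkpoint proteins *MAD2L1* was at -0.63, *BUB1B* at -0.51, *BUB1* at -0.50 and *TTK*, the kinase that starts checkpoint signalling, at -0.49. *BUB3* stood apart from its binding partners. It measured 129, 123 and 120 CPM in parental and 115, 113 and 107 CPM in PACT KO cells, a log2 fold change of -0.15 (95% interval -0.22 to -0.08, FDR = 3.98e-04), and remained at 90.2% of the parental level.

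The 4 subunits of the chromosomal passenger complex, which corrects faulty kinetochore attachments and later guides cytokinesis, were all lower and lay in a narrow range of -0.63 to -0.55. *BIRC5*, which encodes survivin, measured 108, 101 and 104 CPM in LNCaP parental and 67.0, 65.3 and 70.7 CPM in PACT KO cells (log2 fold change -0.63, SE 0.04, FDR = 3.96e-17, edgeR). The scaffold *INCENP* measured 67.4, 65.8 and 67.8 CPM against 44.8, 47.0 and 43.8 CPM (-0.57, SE 0.04, FDR = 7.81e-15). The subunit *CDCA8*, borealin, was at -0.59, and the kinase of the complex, *AURKB*, at -0.55. Any 2 of the 4 intervals overlapped.

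At centromeres and kinetochores 9 of 9 genes were lower, 4 of them as downregulated DEGs, with a median of -0.57. *CENPF*, a large kinetochore protein of G2 and mitosis, measured 124, 130 and 133 CPM in parental and 89.1, 86.4 and 92.6 CPM in PACT KO cells, a log2 fold change of -0.53 (SE 0.03, FDR = 7.43e-16, edgeR). *HJURP*, the chaperone that loads the centromeric histone, measured 40.8, 39.6 and 39.1 CPM against 27.7, 26.3 and 26.7 CPM (-0.57, SE 0.05, FDR = 8.33e-12). The histone itself, *CENPA*, was a low transcript at 10.1 ± 0.403 CPM in parental and 6.11 ± 0.739 CPM in PACT KO cells (-0.73, SE 0.10). The 4 subunits of the Ndc80 complex, which grips the microtubule, had log2 fold changes between -0.83 and -0.40. *SPC25* measured 11.1, 10.6 and 11.9 CPM against 6.35, 6.87 and 5.54 CPM, a log2 fold change of -0.83 (95% interval -1.03 to -0.63, FDR = 8.17e-09). Its direct partner *SPC24* fell from 22.3 ± 1.33 to 16.9 ± 0.692 CPM, a change of -0.40 (95% interval -0.55 to -0.25), and the 2 intervals did not meet. *NDC80* and *NUF2*, the other pair of the complex, were at -0.54 (-0.64 to -0.43) and -0.65 (-0.79 to -0.50), and their intervals overlapped those of both *SPC25* and *SPC24*. *KNL1*, the scaffold on which the checkpoint proteins assemble, was at -0.59, and *CENPE*, a kinetochore motor, at -0.56.

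Of the mitotic kinesins, 9 of 9 were lower and 4 were downregulated DEGs. *KIF2C*, a microtubule depolymerase at centromeres, measured 56.6, 57.4 and 52.9 CPM in LNCaP parental and 33.3, 33.3 and 36.0 CPM in PACT KO cells (log2 fold change -0.70, SE 0.04, FDR = 5.07e-16, edgeR). *KIFC1*, a minus-end motor that focuses spindle poles, measured 49.8, 48.1 and 44.5 CPM against 28.2, 26.8 and 29.1 CPM (-0.76, SE 0.05, FDR = 1.80e-15). *KIF11*, the plus-end motor that pushes the poles apart, changed least of the kinesins, from 39.6 ± 2.06 to 31.4 ± 1.67 CPM. Its log2 fold change of -0.34 (95% interval -0.45 to -0.24) did not meet the interval of *KIF15* (-0.68, -0.85 to -0.51), a motor that also works on spindle bipolarity. The chromokinesin *KIF4A* was at -0.59 and *KIF14*, which acts in cytokinesis, at -0.58. *KIF23*, the motor of centralspindlin, and *KIF20A*, of the central spindle, were at -0.56 and -0.55, and *KIF20B* at -0.42.

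The 10 spindle-associated proteins were all lower, and 5 of them were downregulated DEGs. *TACC3*, which crosslinks microtubules of the kinetochore fibres, had the smallest FDR of all 59 genes. It measured 136, 136 and 133 CPM in parental and 81.6, 84.5 and 85.5 CPM in PACT KO cells, a log2 fold change of -0.69 (SE 0.03, FDR = 5.34e-20, edgeR). *HMMR*, a spindle pole protein that is also a receptor for hyaluronan, measured 68.8, 66.7 and 69.7 CPM against 44.7, 42.6 and 46.0 CPM (-0.63, SE 0.04, FDR = 6.92e-16). A partner of TACC3 on spindle microtubules, the polymerase encoded by *CKAP5*, was among the genes that changed least. Its level was 271 ± 2.5 CPM in parental and 234 ± 2.63 CPM in PACT KO cells, a log2 fold change of -0.21 (95% interval -0.27 to -0.16) or 86.4% of the parental level. *CKAP2* was near it at -0.22, whereas *CKAP2L*, the paralog of CKAP2, had the largest change of the group. It measured 22.5, 21.9 and 21.8 CPM in parental and 12.8, 13.8 and 14.5 CPM in PACT KO cells (log2 fold change -0.69, SE 0.08, FDR = 8.83e-10). *GTSE1*, *DLGAP5*, *TPX2*, *ASPM* and *NUSAP1* lay between -0.60 and -0.50.

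All 3 cytokinesis genes were lower. *ANLN*, the scaffold anillin of the contractile ring, measured 63.2, 67.7 and 67.0 CPM in parental and 43.5, 42.0 and 43.4 CPM in PACT KO cells (log2 fold change -0.62, SE 0.04, FDR = 1.29e-15, edgeR), and was the only downregulated DEG of the 3. *PRC1*, which bundles the central spindle, measured 109, 104 and 108 CPM against 70.3, 71.2 and 77.5 CPM (-0.55, SE 0.04, FDR = 1.64e-15). *ECT2*, the exchange factor that activates RhoA at the cleavage furrow, was at -0.37 (95% interval -0.45 to -0.30).

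The 7 genes of mitotic chromosome structure were all lower, with 2 downregulated DEGs and a median of -0.52. *MKI67*, the source of the Ki-67 proliferation antigen, measured 172, 174 and 178 CPM in parental and 118, 113 and 126 CPM in PACT KO cells, 68.0% of the parental level (log2 fold change -0.56, SE 0.03, FDR = 5.68e-17). *TOP2A*, the topoisomerase that untangles sister DNA, measured 144, 144 and 151 CPM against 98.5, 102 and 106 CPM (log2 fold change -0.52, SE 0.03, FDR = 2.37e-16, edgeR). Condensin I, the ring that compacts chromosomes, was lower in each of its 5 subunits. *NCAPG* measured 43.7, 47.3 and 53.9 CPM in parental and 31.1, 29.1 and 30.7 CPM in PACT KO cells (-0.68, SE 0.06, FDR = 5.85e-13), and *NCAPH* was at -0.61. *NCAPD2* was at -0.45, and the core ATPases shared with condensin II, *SMC4* and *SMC2*, at -0.48 and -0.37. The intervals of *NCAPG* (-0.79 to -0.57) and *SMC2* (-0.46 to -0.29) did not meet.

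The partners of these genes in the same structures were then read from 11 further lists, of which 145 of 146 genes had enough reads to be tested. In these lists 81 genes were lower (55.9%), 13 higher and 51 not called, with 14 downregulated (9.66%) and 2 upregulated DEGs and a median log2 fold change of -0.20. Of all genes tested, 18.8% were lower and 15.3% higher, and 2.65% were downregulated and 3.07% upregulated DEGs. These shares are the ones to set beside the counts of each list below, which are a description. The medians of single lists ran from -0.37 (condensin II) to -0.08 (anaphase-promoting complex), smaller in size than that of every group of members. This difference was not tested.

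**Figure D4:**
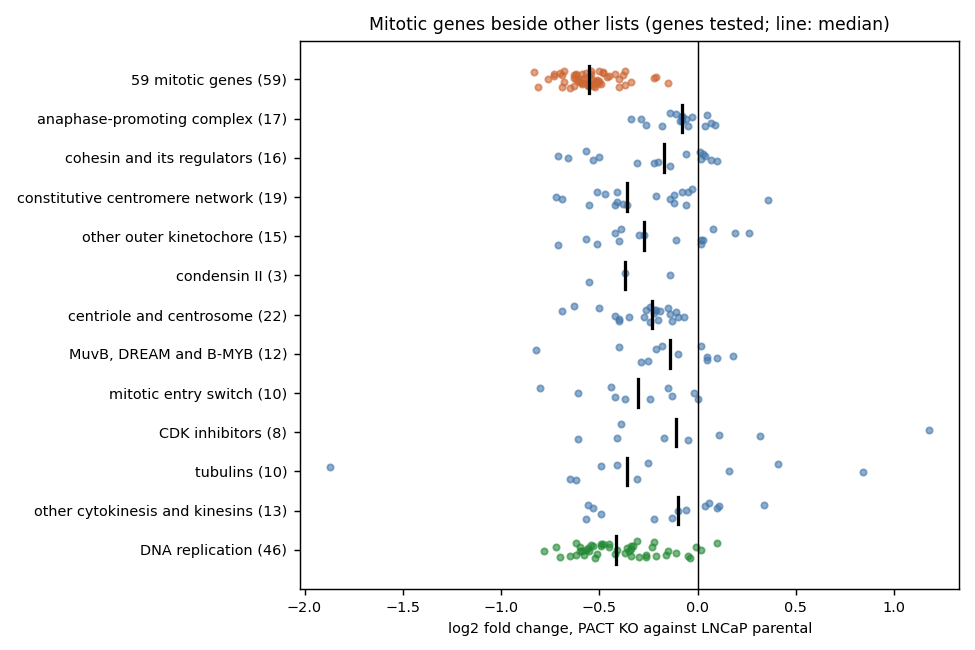
Fitted log2 fold change (x axis) of the 59 mitotic genes, of 11 further lists and of DNA replication genes, 1 point per gene tested, with the median of each list as a line and the number of genes tested in brackets. The 59 genes lie between -0.83 and -0.15, whereas single genes of most other lists reach 0 or above, and those of condensin II (up to -0.14) and of the centriole and centrosome list (up to -0.07) do not.

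The anaphase-promoting complex, the ubiquitin ligase that CDC20 activates, had 7 of 17 genes lower and 0 higher. The largest fall was that of its inhibitor *FBXO5* (log2 fold change -0.34, SE 0.08, FDR = 9.64e-04). Its elongating enzyme *UBE2S* was at -0.29, and the scaffold *ANAPC1* at -0.26. *FZR1*, the coactivator of mitotic exit and G1, was at -0.08 (FDR = 0.0978) and was not called, in contrast to the call for *CDC20*, although the difference of the 2 was not tested.

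In the kinetochore beyond the members, 8 of 15 genes were lower and 2 higher. *SKA3*, of the complex that tracks microtubule ends, was at -0.71 (SE 0.09), and *MIS12* rose from 54.3 ± 3.18 CPM in parental cells to 65.1 ± 2.75 CPM, which is a log2 fold change of 0.26 (SE 0.04, FDR = 2.69e-06, edgeR). *MIS12* names the complex that anchors Ndc80 and KNL1. Of its other subunits *DSN1* was lower at -0.27, while *NSL1* and *PMF1* were both at 0.02 and not called. The list of the constitutive centromere network had 11 of 19 genes lower and 0 higher. The largest fall among them was that of *OIP5* (-0.72, SE 0.09), a subunit of the centromere licensing complex, whereas *CENPC*, the hub of the network, was at -0.03 (FDR = 0.795).

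Of cohesin and its regulators 9 of 16 were lower and 1 higher. *ESCO2*, the acetyltransferase of S phase, was at -0.71 (SE 0.07) and *CDCA5*, sororin, at -0.66, but the ring subunits *SMC1A*, *RAD21* and *SMC3* were at -0.31, -0.22 and -0.14, and *STAG2* was higher at 0.10 (SE 0.03, FDR = 0.00391, edgeR). Condensin II had 2 of 3 subunits lower, led by *NCAPG2* (-0.55, SE 0.04). Among 22 centriole and centrosome genes 15 were lower and 0 higher, with *NEK2*, a kinase that splits centrosomes, at -0.69 (SE 0.07). In the list of further cytokinesis proteins and kinesins 6 of 13 were lower and 2 higher. *RACGAP1*, the partner of KIF23 in centralspindlin, was at -0.57 (SE 0.04), close to *KIF23* itself, while *MYH10*, a nonmuscle myosin, was higher at 0.34 (SE 0.03, FDR = 4.92e-14).

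Tubulins, the building blocks of the spindle, moved in both directions, with 7 of 10 tested genes lower and 3 higher. *TUBA1B* fell from 812 ± 20.6 to 528 ± 9.96 CPM (log2 fold change -0.62, SE 0.03, FDR = 3.89e-21, edgeR), whereas *TUBA1A* rose from 138 ± 1.3 to 247 ± 13.7 CPM (0.84, SE 0.03, FDR = 1.50e-22). *TUBB4A* (0.41) and *TUBB3* (0.16) were higher as well. The lowest value, -1.87 (SE 0.34), was that of *TUBB6*, at 1.24 CPM in parental cells. Tubulin genes are close copies of each other, between which the counting could have split reads.

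Among regulators, the list of MuvB, DREAM and B-MYB had 5 of 12 genes lower and 2 higher. *MYBL2*, which encodes B-MYB, fell from 87.4 ± 1.77 CPM in parental cells to 49.7 ± 2.65 CPM, which is a log2 fold change of -0.82 (SE 0.04, FDR = 1.05e-19, edgeR). The subunit that binds the CHR, *LIN54*, was at -0.29, and *LIN37* and *LIN52* were both at 0.05 and not called. *TFDP2* was the largest rise of this list, at 0.18 (SE 0.03). Of the switch that times mitotic entry, 7 of 10 genes were lower and 0 higher. *PKMYT1*, a kinase that inhibits CDK1, was at -0.80 (SE 0.08), *CCNA2* at -0.61, and *WEE1*, the other kinase that inhibits CDK1, at -0.13 (SE 0.04). CDK inhibitors were split, with 4 of 8 lower and 3 higher. *CDKN3*, a phosphatase that peaks in mitosis, was at -0.61 (SE 0.07), whereas *CDKN1C*, which encodes p57, rose from 1.40 ± 0.190 CPM in parental cells to 3.15 ± 0.735 CPM, which is a log2 fold change of 1.18 (SE 0.18, FDR = 1.42e-06). *CDKN2A* was higher at 0.32 and *CDKN1A*, which encodes p21, at 0.11 (FDR = 0.00309).

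Genes outside the members were also counted by whether a CHR began near the start. Among the members themselves, all 31 with such a CHR and all 20 without one were lower, with medians of -0.59 and -0.54. In the 11 lists, 21 of the 23 genes with a CHR within 50 bases of the start were lower (91.3%) and 0 higher, with a median log2 fold change of -0.42. Of the 105 genes without one, 50 were lower (47.6%) and 12 higher, with a median of -0.13. Among promoters of DNA replication genes, 0 of 39 had such a CHR, and 39 of the 46 genes of that list were lower, with a median of -0.42. All genes tested outside the members, a set that includes the 11 lists, were counted as well. With such a CHR, 102 of 312 were lower (32.7%) and 43 higher (13.8%), with a median of -0.08. Without one, 2071 of 10832 were lower (19.1%) and 1708 higher (15.8%), with a median of 0.00. These shares are a description with no test, and genes of these lists were not independent of each other.

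A second set of cell cycle genes, the 46 genes of DNA replication, had 39 lower (84.8%, against 18.8% of all genes tested) and 0 higher. It had 9 downregulated DEGs (19.6%, against 2.65%) and a median log2 fold change of -0.42, with *RRM2*, a subunit of ribonucleotide reductase, lowest at -0.78. The 7 replication genes that were not called included *ORC2*, *ORC3*, *ORC4* and *ORC5* of the origin recognition complex, at -0.04, 0.10, 0.02 and -0.01. Among the 59 mitotic genes there was no such uncalled gene, and the nearest were *BUB3*, *CKAP5* and *CKAP2*. The difference between the sets was not tested.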

How the data were processed

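RNA-seq of 6 libraries was analysed, 3 of LNCaP parental and 3 of PACT KO cells. The authors deposited whole-number read counts per NCBI Gene number, not normalized. The submitters' processing notes list bcl2fastq 2.20.0.422, STAR 2.5.3a, StringTie 1.3.3, featureCounts 1.5.3 and hg38; annotation, strand and multi-mapping settings are not given in the sources used here. Reads in the row that names no gene (0.0688% to 0.0708% per library) were left out. Depth was 19930060 to 24940838 reads per library.

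Genes were filtered with filterByExpr, scaled by TMM and tested with glmQLFit and glmQLFTest (edgeR 4.0.16, R 4.3.3, defaults), unblocked. SE is the absolute log2 fold change divided by the square root of F, and 95% intervals use the test's degrees of freedom. RPKM used the exon union of GENCODE release 29, and positions come from RefSeq GRCh38.p14, the assembly of hg38. On simulated counts for 14462 genes, edgeR recovered 83 of 100 genes changed by 0.5 (log2) and 89 of 98 tested that changed by 1, with 2 false calls. The simulated counts gave all genes the same dispersion (a coefficient of variation of 2.9%). They therefore do not measure recovery or false calls where the spread differs by gene. With 3 dishes a group an exact permutation test cannot go below 0.10. Nothing states that dishes were separate cultures beyond separate plating, so p-values measure the spread between dishes.

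The members, the lists, the tests and the naming rule were chosen with earlier results of these data known. By the rule, any member could be named, with per-library values for the 2 smallest FDRs and the largest change of each role, and from each other list the largest fall and rise past the threshold. Genes of other lists named beyond it, and *BUB3* for its per-library values, were chosen after their values were seen. Alternatives were RLE, upper-quartile and no scaling, 2 other filters, DESeq2 1.42.0, limma-voom 3.58.1, a likelihood ratio test, a replicate block, other thresholds and each library left out in turn.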

Additional observations from a re-analysis of the deposited data

How the results depend on the processing

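All 59 mitotic genes were lower at an FDR under 0.01, and 0 higher, under each of the 15 other fits, which comprised other scalings, filters and tests, the replicate block and each library left out in turn, and also at an FDR under 0.05. The median log2 fold change ranged from -0.563 to -0.526 with a library left out and from -0.554 to -0.525 otherwise. The number of downregulated DEGs depended on the fold threshold, since most falls lay near 1.5-fold: it was 23 as reported, 2 with glmTreat and 0 at a 2-fold threshold, 17 with library totals in place of TMM, and 18 to 27 with each library left out. The 11 further lists had 72 to 82 genes lower across the same fits, against 81. Same-numbered replicates did not deviate together (Pearson's r of -0.0938, 0.00285 and -0.0862 over 14462 genes for numbers 1, 2 and 3), so the numbers were not taken to pair the dishes, and with the replicate block 59 members were lower and 22 were downregulated DEGs. The members had 112 to 6751 reads per library. The largest standard errors, 0.10, were those of *SPC25*, *CENPA* and *CDC25C*, and the part of depth in them was not tested.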
